A study of Mus musculus with 24 samples.

Results

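Ppp1r17, Rgs4, Gm13889 and Rprl3 are 4 of the 22889 gene entries of an RNA sequencing table of mouse stem cell-derived motor neurons, and were selected on having the largest rises in oculomotor over spinal sorted neurons without overlap of samples. The label given to them, genes nearly restricted to oculomotor neurons, describes 3 of the 4. The order of all 4 between the GFP-positive groups was set by the selection, and only the GFP-negative groups lay outside it. Ppp1r17, Rgs4 and Gm13889 were high in the GFP-positive oculomotor neurons and low in the other 3 groups. Rprl3 was present in both fractions of the oculomotor cultures, was higher in the GFP-negative cells than in the GFP-positive neurons in 6 of 6 pairs, and gave 1 read in each fraction of the spinal cultures.

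The experiment had 24 samples in 4 groups of 6. Oculomotor (OMN) cultures came from 1 mouse embryonic stem cell line, Islet1-GFP/NesEPhox2A, in which the Islet1-GFP reporter marks motor neurons and a Phox2a transgene is driven in neuronal progenitors by the nestin enhancer, with 250 nM of the Smoothened agonist SAG and 100 ng/ml Fgf8 for 5 days. Spinal (SC) cultures came from an Hb9-GFP line with no such transgene, with 500 nM SAG and 100 nM retinoic acid for 5 days. GFP-positive (GFP+) and GFP-negative (GFP−) fractions were collected by cell sorting from each culture. The cell line, its transgene, its reporter and the patterning factors all changed together between the cultures and cannot be told apart.

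The 4 genes have little in common in what they encode. Ppp1r17, also known as G-substrate, is a protein that cGMP-dependent protein kinase phosphorylates and that then inhibits the protein phosphatases PP1 and PP2A, and it is best known from cerebellar Purkinje cells. Rgs4 is a regulator of G protein signaling, one of a family of proteins that speed the hydrolysis of GTP by G protein alpha subunits of the Gi and Gq classes and so shorten receptor signals. Gm13889 is annotated as a protein-coding gene without an established function. Rprl3 is an RNase P RNA-like gene, a relative of Rpph1, which encodes the RNA subunit of RNase P, the enzyme that trims the 5′ end of precursor transfer RNAs.

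In the GENCODE M21 annotation of GRCm38 (mm10), Ppp1r17 (ENSMUSG00000002930.6) lies at chr6:56017497-56032689 on the plus strand, with 5 exons in 1 transcript of 1757 bases. Rgs4 (ENSMUSG00000038530.11) lies at chr1:169741477-169747642 on the minus strand, with 3 annotated transcripts whose exons cover 3098 bases. Gm13889 (ENSMUSG00000087006.3) lies at chr2:93955810-93957201 on the minus strand and has no intron. Part of it lies within the span of another protein-coding gene on the same strand, Gm27027. That gene had no entry of its name in the RPKM values, so reads from the shared part cannot be assigned between these genes. Rprl3 (ENSMUSG00000088025.1) lies at chr8:3803069-3803358 on the minus strand as a single exon of 290 bases. The genes of the table nearest to the 4 on each side were 22833 to 336234 bases away. None of these 8 neighbors had a mean above 0.412 RPKM in any group, and none passed the threshold in any comparison in which it was tested.

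The sequences of Rprl3 and Rpph1 are shown because the reads of one have to be told from those of the other. Their transcripts align over bases 1 to 236 of Rprl3 and 1 to 257 of Rpph1 with 221 identical positions, 15 mismatches and 21 gap bases (86.0% identity). The aligned parts, read from the GENCODE transcripts, are given 5′ to 3′ with capitals at the bases that differ and at the 21-base stretch that Rprl3 lacks.
Rprl3, aligned part: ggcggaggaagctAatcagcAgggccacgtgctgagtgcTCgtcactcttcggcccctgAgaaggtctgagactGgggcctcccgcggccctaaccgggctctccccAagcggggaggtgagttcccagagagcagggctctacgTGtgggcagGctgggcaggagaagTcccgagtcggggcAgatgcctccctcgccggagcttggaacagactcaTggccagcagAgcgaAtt
Rpph1, aligned part: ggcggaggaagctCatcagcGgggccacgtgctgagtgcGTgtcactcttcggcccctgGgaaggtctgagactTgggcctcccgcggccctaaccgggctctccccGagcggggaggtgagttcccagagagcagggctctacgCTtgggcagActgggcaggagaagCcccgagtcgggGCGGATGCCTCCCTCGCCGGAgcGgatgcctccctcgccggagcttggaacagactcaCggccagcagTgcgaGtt
In genome coordinates these are chr8:3803123-3803358 and chr14:50807511-50807767, both on the minus strand. The libraries were read at 43 or 51 bases. None of the 248 windows of 43 bases in Rprl3 and none of the 240 windows of 51 bases occurred unchanged in Rpph1, and 84 of the 248 shorter windows were within 2 mismatches of it. Reads assigned to Rprl3 can thus be distinguished from Rpph1 in principle, but by few bases in part of the transcript, and its values are uncertain to that extent. The related genes Rprl1 and Rprl2 were compared with Rpph1 only, so how far their reads can be told from those of Rprl3 was not assessed. The libraries were made from poly(A) RNA, whereas RNase P RNA is transcribed by RNA polymerase III, and how its molecules entered the libraries was not tested.

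Of the 4 genes, Rgs4 had an entry in the RefSeq promoter sequences used here (GRCm38.p6). The 250 bases upstream of its start, chr1:169747643-169747892 on the minus strand, are shown because Rgs4 was high in neurons sorted on a homeodomain gene, Isl1, with capitals at the matches of the motifs searched.
Rgs4 promoter: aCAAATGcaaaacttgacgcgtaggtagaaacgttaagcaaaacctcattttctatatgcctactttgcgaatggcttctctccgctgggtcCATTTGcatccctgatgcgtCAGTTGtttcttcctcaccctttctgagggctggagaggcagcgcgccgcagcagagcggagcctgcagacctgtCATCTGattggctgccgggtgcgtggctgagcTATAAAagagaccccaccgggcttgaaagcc
On either strand it held 4 matches of the E-box CANNTG, which 66.22% of 32851 promoters of this length hold at least once, and 1 match of TATAAA, which 12.37% hold. The homeodomain core TAAT, present in 54.92% of promoters, had no match, nor had the paired homeodomain arrangement in which TAAT is followed by AATTA after a gap of 2 bases, present in 0.2466%. A match or its absence says only which letters are in this window.

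Values are RPKM, read counts divided by transcript length and by the mapped reads of the library, as computed by the authors. The number of mapped reads was recovered from the steps of the low RPKM values and ranged from 752572 to 7675600 per sample, with 752572 to 4642711 in replicates 1 to 4 and 4822590 to 7675600 in replicates 5 and 6 of every group. Each of the 45 values of the 4 genes that were above 0 and under 30 reads was within 0.1 of a whole read. Several spinal libraries stood apart. Spinal sample 2 had 68.8% (GFP−) and 17.8% (GFP+) of its summed RPKM in 3 predicted genes, and spinal GFP+ sample 4 had the lowest sum of 10 pan-neuronal markers of the spinal GFP+ group (98.7 against 643.2 to 2775 RPKM), while its GFP− partner held Mnx1, the gene of the Hb9 reporter, at 69.4 RPKM. Whether the gate and labels of spinal sample 4 are as stated could not be settled from these data, and its values in both fractions carry that doubt. The differences of the 4 genes between GFP+ fractions and that of Rprl3 between GFP− fractions are also given without samples 2 and 4.

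Ppp1r17 had the largest rise of all genes by the rule. In oculomotor GFP+ samples it ran from 158.2 to 367.8 RPKM (median 253.8), from 393 to 4464 reads per sample. In oculomotor GFP− samples it ran from 0 to 1.77 RPKM (median 0.931), with 4 of 6 samples at 3 reads or fewer. Spinal GFP+ samples held 0.945 to 12.0 RPKM (median 4.36), with samples 1 to 3 between 7.23 and 12.0 and samples 4 to 6 between 0.945 and 1.48. Spinal GFP− samples held 0 to 12.6 RPKM (median 3.84). The lowest oculomotor GFP+ value was thus far above the highest value of any other group, whereas the 2 spinal groups overlapped over nearly their whole ranges. The mean was 256.7 ± 90.4 (SD, n = 6) in oculomotor GFP+ samples, 5.58 ± 4.99 in spinal GFP+, 4.69 ± 4.62 in spinal GFP− and 0.931 ± 0.704 in oculomotor GFP−.

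Rgs4 had a similar order at the top and a different one below. It ran from 78.6 to 190.5 RPKM (median 125.6) in oculomotor GFP+ samples, which is 670 to 2417 reads. The oculomotor GFP− samples held 0 to 0.718 RPKM (median 0.247), 16 reads in all 6 samples. In spinal GFP+ samples it ran from 0.248 to 6.94 RPKM (median 2.67), and samples 1, 2 and 6 held 4.44 to 6.94 while samples 3, 4 and 5 held 0.248 to 0.893. In spinal GFP− samples it was 0 in 3 of 6 and at most 0.824 RPKM. The mean levels were 129.1 ± 47.3 (SD, n = 6), 0.284 ± 0.241, 3.14 ± 2.93 and 0.276 ± 0.345 RPKM in this order of groups, and the 2 GFP− groups did not differ beyond their spread.

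Gm13889 was the most variable of the 3 genes of the sorted neurons. It ran from 4.64 to 107.7 RPKM (median 17.3) in oculomotor GFP+ samples, a 23.2-fold range, against 2.33-fold for Ppp1r17 and 2.42-fold for Rgs4 in the same libraries. Its lowest value there was in sample 1 and its highest in sample 4, and the reads behind the 6 values numbered 30 to 212. The other groups held at most 1.60 RPKM (oculomotor GFP−), 1.66 RPKM (spinal GFP+) and 0.984 RPKM (spinal GFP−), with 19, 16 and 8 reads in 6 samples. The means were 34.0 ± 39.0 (SD, n = 6) in oculomotor GFP+, 0.713 ± 0.626 in oculomotor GFP−, 0.639 ± 0.741 in spinal GFP+ and 0.291 ± 0.388 in spinal GFP− samples, and the last 3 overlapped.

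Rprl3 was separated by the kind of culture, and within the oculomotor cultures it was lower in the GFP+ fraction of each pair. In oculomotor GFP+ samples it ran from 5.49 to 67.4 RPKM (median 18.7; mean 23.9 ± 22.6, SD, n = 6), and in oculomotor GFP− samples from 20.002 to 105.9 RPKM (median 27.7; mean 43.3 ± 32.9). These values rest on 10 to 50 and on 21 to 88 reads per sample. Spinal GFP+ samples were at 0 in 5 of 6, with 0.883 RPKM in sample 4, and spinal GFP− samples were at 0 in 5 of 6, with 0.486 RPKM in sample 6, each of which is 1 read. All 12 oculomotor samples were above all 12 spinal samples, and the 2 oculomotor groups overlapped although the GFP− sample was the higher in 6 of 6 pairs.

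**Figure D1:**
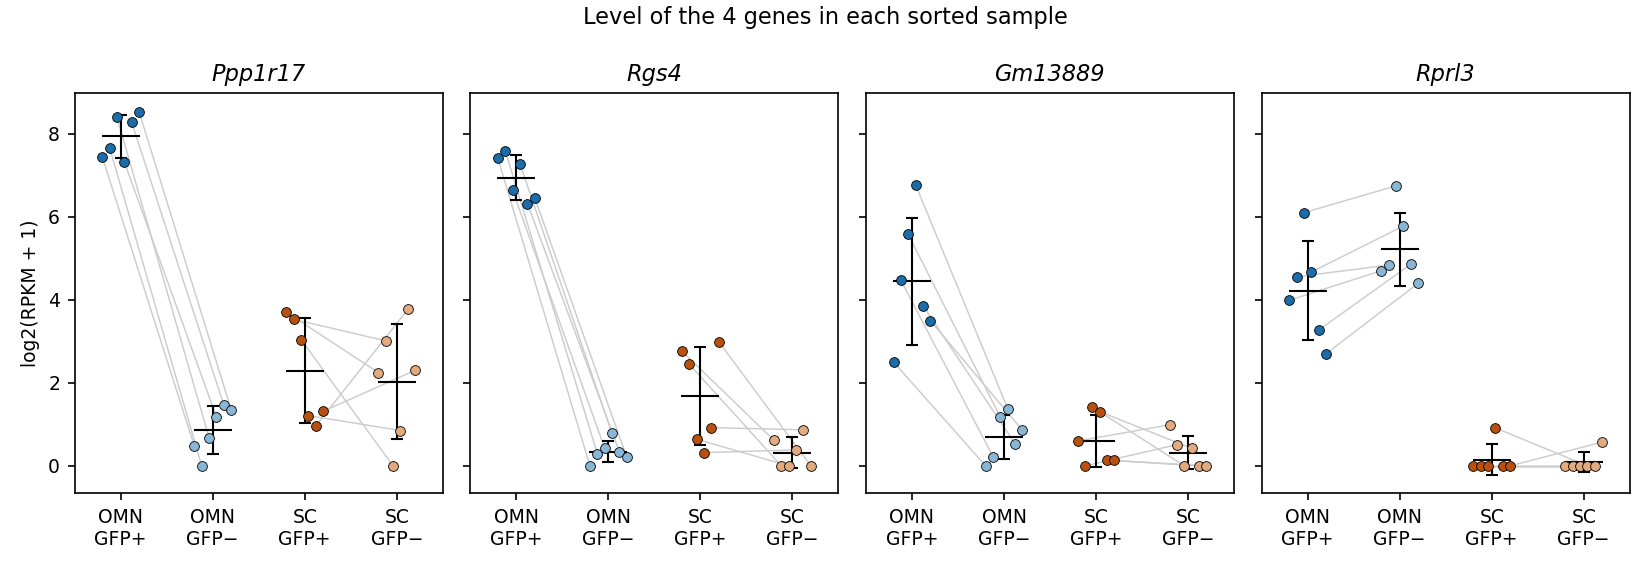
Level of each gene as log2(RPKM + 1) in the oculomotor (OMN) and spinal (SC) GFP+ and GFP− samples. Points are samples, gray lines join the fractions of one culture, and bars are the mean ± SD of 6 samples. Ppp1r17, Rgs4 and Gm13889 drop from the GFP+ to the GFP− fraction of the oculomotor cultures, while Rprl3 is higher in the GFP− fraction in 6 of 6 pairs and is at 0 in 10 of 12 spinal samples.

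The comparison that chose the genes is given as a description. Between GFP+ fractions, the oculomotor minus spinal difference in log2(RPKM + 1) was 5.64 ± 0.51 (SE) for Ppp1r17, 5.26 ± 0.49 for Rgs4, 4.06 ± 0.50 for Rprl3 and 3.85 ± 0.62 for Gm13889, and by the rule none of the 4 overlapped. Of 19240 genes tested there, 0.733% had all 6 oculomotor samples above all 6 spinal samples, and 0.603% passed an adjusted p of 0.05 in either direction in limma. Just below Gm13889 and outside were Lmo1 at 3.84, Crabp1 at 3.73 and Eif2s3y at 3.72, so Gm13889 lay at the edge. Without the spinal GFP+ samples 2 and 4, the differences were 5.68, 5.11, 4.21 and 3.87 in the order above. Within replicates 1 to 4 they were 4.83, 5.68, 4.60 and 4.00, and within replicates 5 and 6 they were 7.26, 4.43, 2.98 and 3.54. The sum of 8 pluripotent cell markers ran from 0.315 to 268.3 RPKM (median 60.1) in oculomotor GFP+ samples and from 14.4 to 12447 RPKM (median 929.2) in spinal GFP+ samples, and its part in these differences was not tested.

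The GFP− fractions had no part in the choice of the genes, and asked whether the culture difference extends to cells outside the reporter gate. It did for Rprl3. Rprl3 was higher in oculomotor than in spinal GFP− samples by 5.12 ± 0.44 (SE, n = 6 and 6) in log2(RPKM + 1), with an adjusted p of 2.43e-07 in limma over 22179 genes, and in 6 of 6 samples above all spinal ones (exact permutation test, two-sided p = 0.00216, the smallest that 6 against 6 can give). In this comparison 0.96% of genes passed the threshold and 0.397% had all oculomotor above all spinal samples. The adjusted p in limma ranged from 4.71e-08 to 0.000107 over 19 alternatives, and the size depends on the offset added before the logarithm, with 8.07 for an offset of 0.1 RPKM. In reads, oculomotor GFP− samples held 239 and spinal GFP− samples 1, which relative to depth is a ratio of 261 with a 95% interval of 46.4 to 10359 that covers counting error alone. Within replicates 1 to 4 the difference was 5.51, within replicates 5 and 6 it was 4.34, and without the spinal GFP− samples 2 and 4 it was 5.07. The GFP− samples came from the same cultures as the GFP+ samples that chose the gene.

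The other genes did not pass between GFP− fractions. Ppp1r17 was lower in oculomotor than spinal GFP− samples, the opposite of its order in the sorted neurons, with a difference of -1.17 ± 0.56 (SE) and an adjusted p of 0.435 in limma (exact permutation test, p = 0.0887), and its adjusted p ranged from 0.212 to 0.741 over the alternatives. Rgs4 differed by 0.03 ± 0.40 (adjusted p = 0.9951 in limma; exact permutation test, p = 0.874). Gm13889 differed by 0.37 ± 0.51 (adjusted p = 0.819 in limma; exact permutation test, p = 0.201). For Rgs4 and Gm13889 most GFP− samples held 3 reads or fewer, 5 and 4 of 6 in oculomotor and 3 and 5 of 6 in spinal cultures, which limits what these comparisons can show. The GFP− fractions also differed in cell content: the 8 pluripotent cell markers summed to 733.4 to 9900 RPKM in oculomotor and 88.5 to 6054 RPKM in spinal samples, and the 10 pan-neuronal markers to 33.4 to 73.1 and 102.9 to 752.2 RPKM. Their part in these differences was not tested.

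**Figure D2:**
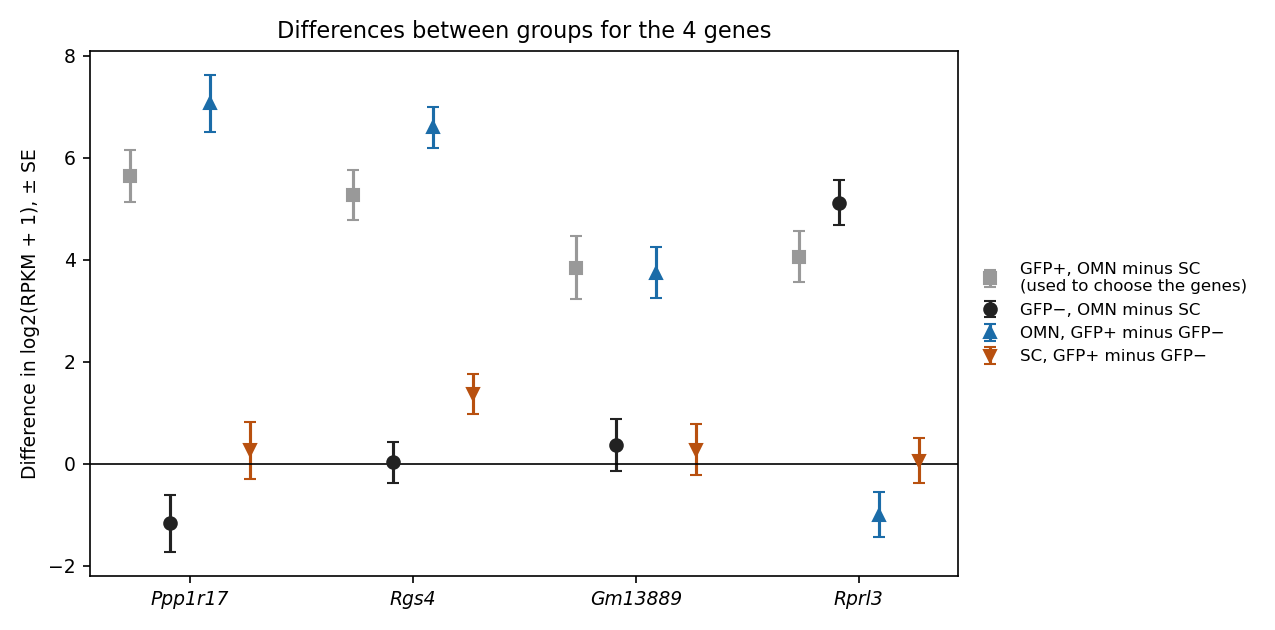
Difference in log2(RPKM + 1) ± SE for each gene between oculomotor (OMN) and spinal (SC) samples within each fraction, and between fractions within each culture, from 6 samples per group. Gray squares are the comparison used to choose the genes. In the GFP− fractions (black circles) Rprl3 stands at 5.12 and the other 3 genes lie between -1.17 and 0.37.

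Within the oculomotor cultures, 3 genes went with the reporter. Ppp1r17 was higher in the GFP+ than in the GFP− fraction by 7.07 ± 0.56 (SE) in log2(RPKM + 1), Rgs4 by 6.60 ± 0.40 and Gm13889 by 3.75 ± 0.51, each in 6 of 6 pairs and with no overlap of the groups. The lowest GFP+ value was 158.2 against a highest GFP− value of 1.77 RPKM for Ppp1r17, 78.6 against 0.718 for Rgs4 and 4.64 against 1.60 for Gm13889. Of all genes tested, 4.04% had every GFP+ above every GFP− sample. The GFP+ values also served to choose the genes, so these differences are a description. In bulk samples, fewer cells of a type and less RNA per cell cannot be told apart.

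The level left in the GFP− fraction sets the 3 genes beside the markers of the sort. The GFP− mean was 0.362% of the GFP+ mean for Ppp1r17, 0.220% for Rgs4 and 2.10% for Gm13889. It was 0.481% for Isl1, the LIM homeodomain gene whose reporter set the gate, 1.51% for the neuronal tubulin Tubb3 and 2.65% for Tbx20, a transcription factor of cranial motor neurons. Rprl3 differed from all of these, with a GFP− mean of 181% of the GFP+ mean and 122% to 364% within the 6 pairs. On the log2 scale its difference between GFP+ and GFP− was -1.003 ± 0.44 (SE). Rpph1 also was higher in the GFP− sample in 6 of 6 pairs, at 103% to 267% of its partner.

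Within the spinal cultures the 4 genes were low in both fractions. Rgs4 was higher in the GFP+ fraction in 5 of 6 pairs, by 1.37 ± 0.40 (SE) in log2(RPKM + 1), and 4 of 6 GFP+ samples lay above all GFP− samples. Without the GFP− samples 2 and 4 the difference of Rgs4 was 1.31. The differences of Ppp1r17 (0.26 ± 0.56), Gm13889 (0.28 ± 0.51) and Rprl3 (0.06 ± 0.44) were smaller than their errors. For Ppp1r17 the sign differed between sets of replicates, with 1.34 in replicates 1 to 4 and -1.90 in replicates 5 and 6, where the highest spinal value of all, 12.6 RPKM, was in GFP− sample 5. The GFP+ values entered the choice of the genes, and no test is given.

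Rpph1 served as the measure of how much RNase P RNA each library held. It was detected in 24 of 24 samples, from 69.0 to 498.7 RPKM in oculomotor GFP+, 140.4 to 675.2 in oculomotor GFP−, 47.2 to 476.6 in spinal GFP+ and 13.0 to 770.7 in spinal GFP− samples. It did not pass between cultures in either fraction, with differences of -0.02 ± 0.68 (SE, adjusted p = 0.998 in limma) in GFP+ and 1.07 ± 0.78 (adjusted p = 0.635 in limma) in GFP− samples. Of the reads of the pair of genes, Rprl3 took 131 of 1341 (9.77%, 95% Wilson interval 8.29% to 11.5%) in oculomotor GFP+ samples and 239 of 2219 (10.8%, 9.55% to 12.1%) in oculomotor GFP− samples. Within samples its share ran from 4.26% to 14.2% and from 8.68% to 13.9%, so the fractions overlapped. In spinal samples it took 1 of 1631 reads (0.0613%, 0.0108% to 0.346%) in the GFP+ and 1 of 1315 (0.0760%, 0.0134% to 0.429%) in the GFP− fraction. The shares of spinal libraries with no Rprl3 read are bounded by a count of 0 at 0.598% to 42.9%, the upper end in spinal GFP− sample 2 with 7 Rpph1 reads. Intervals and bounds cover counting error only, since reads of amplified libraries without molecular identifiers are not independent molecules.

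**Figure D3:**
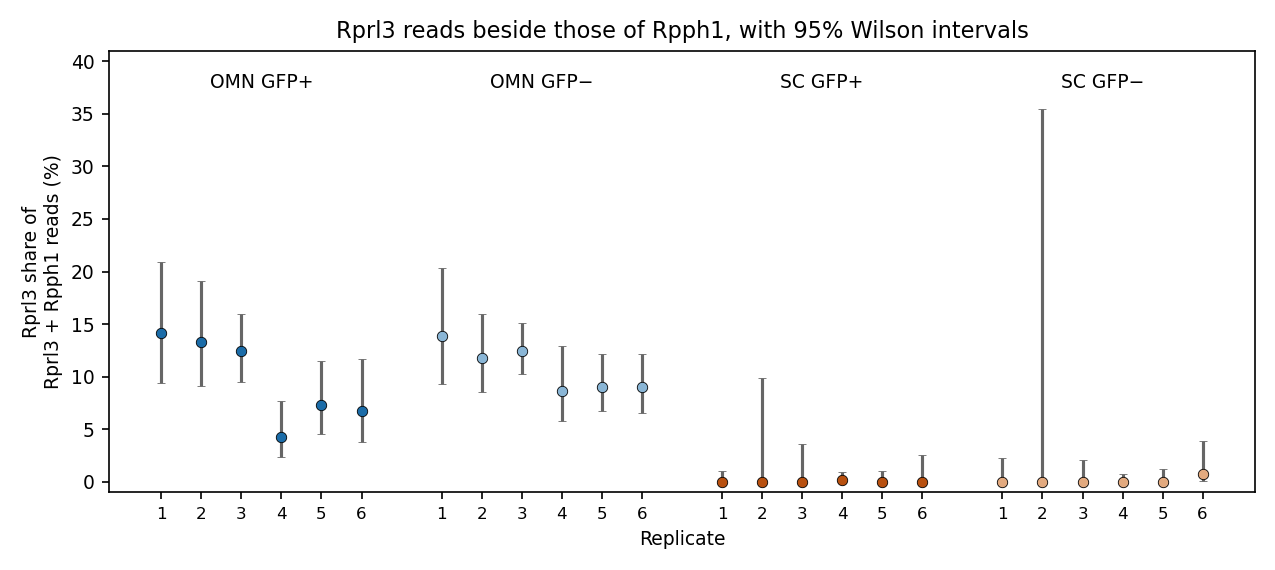
Reads of Rprl3 as a percentage of the reads of Rprl3 and Rpph1 together, by replicate in the oculomotor (OMN) and spinal (SC) GFP+ and GFP− samples, with 95% Wilson intervals for counting error. The 12 oculomotor samples lie between 4.26% and 14.2%, and 10 of the 12 spinal samples are at 0.

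No other RNase P or RNase MRP gene passed the threshold between the cultures, where few of all genes did. Over all genes, 0.603% passed between GFP+ and 0.96% between GFP− fractions, so a count of 0 in a short list says little. An unadjusted p under 0.05 in limma was found for 1951 of 19240 genes between GFP+ and 2500 of 22179 between GFP− fractions. The same background applies to the lists that follow. Of 15 such genes tested (protein subunits such as Pop1 and Rpp40, and the RNAs Rpph1, Rmrp, Rprl1 and Rprl2), 0 passed the threshold in limma in either direction between GFP+ fractions, where 1 had an unadjusted p under 0.05, and 0 passed between GFP− fractions, where 3 did. The median difference was 0.05 in log2(RPKM + 1) between GFP+ fractions, beside -0.04 over all genes, and 0.73 between GFP− fractions, again beside -0.04. Rprl1 was at 0 in 3 of the groups and at 0.553 ± 0.908 RPKM (SD, n = 6) in oculomotor GFP+ samples, and Rprl2 was at most 1.31 ± 2.95 RPKM in any group. Rpp21, the most abundant protein subunit, held 61.6 ± 35.8 RPKM in oculomotor and 60.3 ± 32.8 RPKM in spinal GFP+ samples. Between the fractions of the oculomotor cultures 0 of the 15 passed in limma, beside 6.15% of all genes. There 3 were under an unadjusted p of 0.05, and the median was -0.45. With 1 term for each culture in the fit, 3 of 15 were lower in the GFP+ fraction (Rpp25, Rpp38 and Rpp40), where 16.4% of all genes passed. Between the fractions of the spinal cultures 0 passed, beside 1.23% of all genes, with 1 under an unadjusted p of 0.05.

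For Rgs4, 18 other genes of the RGS list (other regulators of G protein signaling and the binding proteins Rgs7bp and Rgs9bp) set its level in context. RPKM is per length, so levels can be compared between genes. At 129.1 RPKM in oculomotor GFP+ samples, Rgs4 stood above Rgs19 at 9.24 ± 7.57 (SD, n = 6), the next in that group, and Rgs16 at 8.51 ± 8.17. None of the 18 passed in limma between GFP+ fractions, beside 0.603% of all genes, or between GFP− fractions, beside 0.96%. An unadjusted p under 0.05 in limma was found for 0 and 2 of them. The medians were 0.06 and 0.00 in log2(RPKM + 1). Rgs2, with the second highest mean over all samples, held 5.57 ± 3.09 RPKM in oculomotor and 9.55 ± 7.65 RPKM in spinal GFP+ samples.

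**Figure D4:**
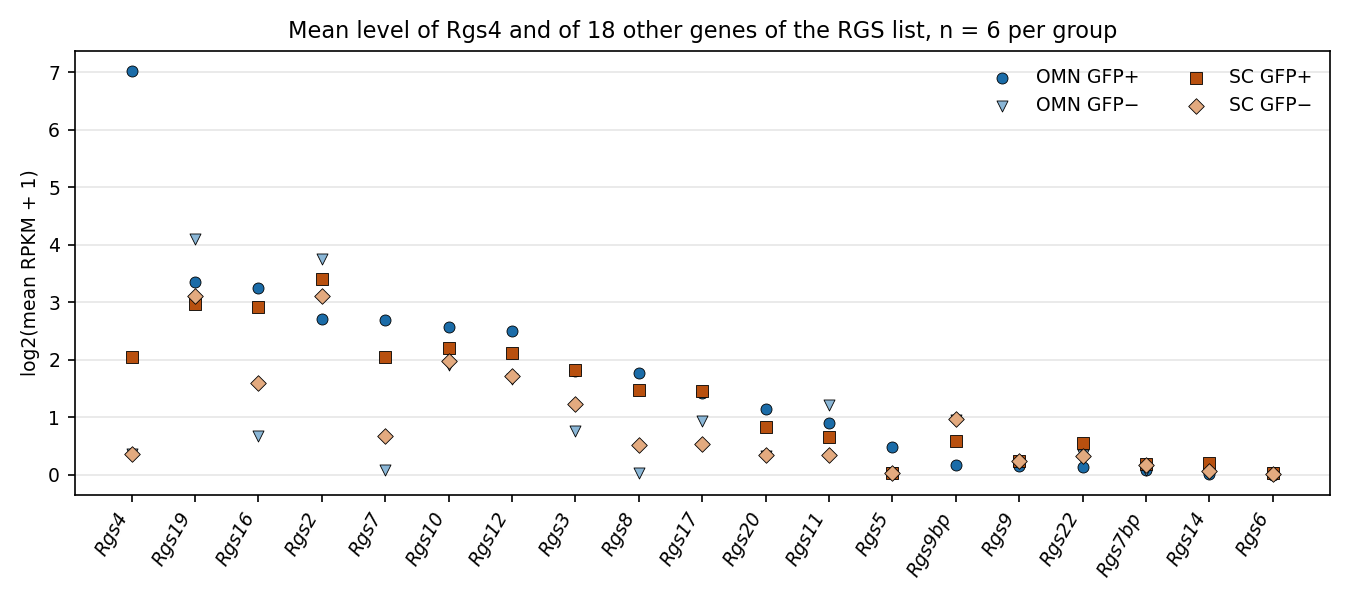
Mean level, as log2(mean RPKM + 1), of Rgs4 and 18 other genes of the RGS list in the 4 groups of 6 samples, ordered by the level in oculomotor (OMN) GFP+ samples. Rgs4 stands at 129.1 RPKM there, and the next gene, Rgs19, at 9.24 RPKM.

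Rgs4 was not the sole regulator of its family that was higher in the sorted oculomotor neurons than in the rest of the culture. Between the fractions of the oculomotor cultures, where 6.15% of all genes passed, 4 of 18 rose and 0 fell: Rgs7 by 2.39 ± 0.47 (SE, adjusted p = 0.00242 in limma), Rgs16 by 2.23 ± 0.65 (adjusted p = 0.0399), Rgs8 by 1.62 ± 0.31 (adjusted p = 0.00214) and Rgs20 by 0.76 ± 0.20 (adjusted p = 0.0245). Their levels in GFP+ samples were 1.20 to 8.51 RPKM. The median of the 18 was 0.14, beside 0.00 over all genes. The count fell to 2 without oculomotor GFP+ sample 3, without GFP+ sample 4 or without GFP− sample 5, and with 1 term for each culture it was 5 higher and 1 lower, where 16.4% of all genes passed. In the spinal cultures, where 1.23% of all genes passed, 0 of the 18 passed in limma between fractions, with 4 under an unadjusted p of 0.05. The pan-neuronal markers summed to 1742 to 3963 RPKM in the oculomotor GFP+ and 33.4 to 73.1 RPKM in the GFP− samples, and their part in these differences was not tested.

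G protein alpha subunits and phospholipase C beta effectors were measured as a list beside Rgs4, with alpha subunits outside the Gi and Gq classes included. Of this list, 3 passed between the oculomotor fractions and 0 between the cultures. Of the 17 genes, 0 of 16 tested passed between GFP+ fractions and 0 of 17 between GFP− fractions in limma, with 2 and 3 under an unadjusted p of 0.05. Of all genes, 0.603% and 0.96% passed in these comparisons. The count between GFP+ fractions stayed at 0 in 17 of 19 alternatives and was at most 1. Gnai2 and Gnai3, inhibitory alpha subunits and the most abundant of the list, held 57.3 ± 44.9 and 51.9 ± 25.9 RPKM (SD, n = 6) in the oculomotor GFP+ group and 33.6 ± 30.5 and 44.6 ± 17.7 RPKM in spinal GFP+ samples. Between the fractions of the oculomotor cultures 2 rose and 1 fell of 17, where 6.15% of all genes passed. Gnao1, the alpha subunit abundant in neurons, rose by 2.42 ± 0.46 (SE, adjusted p = 0.00191 in limma), and Gnaz, a further member of the inhibitory class, by 1.89 ± 0.52 (adjusted p = 0.0299). Gna15, of the Gq class, fell by 0.95 on the log2 scale (SE 0.27, adjusted p = 0.0351 in limma), from 1.13 ± 1.09 RPKM to 0 in all GFP+ samples. The count fell from 3 to 1 without any 1 of the oculomotor GFP+ samples 3 to 6 or GFP− sample 1, and with 1 term for each culture 4 rose and 1 fell, where 16.4% of all genes passed. In spinal cultures 0 of 17 passed, beside 1.23% of all genes, with 3 under an unadjusted p of 0.05. The medians over the list were 0.12 between GFP+ fractions, -0.01 between GFP− fractions, 0.26 in oculomotor and 0.10 in spinal cultures.

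For Ppp1r17, the phosphatases that it inhibits and other inhibitors of them were measured as a list of 20 genes. None passed in limma between GFP+ fractions (19 tested, 3 under an unadjusted p of 0.05) or between GFP− fractions (20 tested, 1 under that p), with medians of 0.19 in both. Of all genes, 0.603% passed between GFP+ and 0.96% between GFP− fractions. Set, an inhibitor of PP2A and the most abundant gene of the list, held 388.5 ± 284.2 RPKM (SD, n = 6) in the oculomotor GFP+ group and 620.6 ± 670.0 RPKM in the spinal one, and Ppp1r14b, an inhibitor of PP1, 214.5 ± 112.6 and 197.5 ± 145.2 RPKM. Between the fractions of the oculomotor cultures, 1 of 20 passed: Ppp1r14a, an inhibitor of myosin phosphatase, rose by 4.37 ± 0.85 (SE, adjusted p = 0.00209 in limma), from 4.47 to 107.8 RPKM. This count is near the 6.15% of all genes that passed. With 1 term for each culture 3 of 20 were higher (Ppp1r14a, Ppp1r14b and Ensa) and 2 lower (Set and Anp32a), where 16.4% of all genes passed. Between the spinal fractions 0 passed, beside 1.23% of all genes, with 1 under an unadjusted p of 0.05. With 1 term for each culture 1 (Ppp1r14b) was higher there, where 2.93% of all genes passed. The medians were -0.05 in oculomotor and 0.24 in spinal cultures.

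The kinases upstream of Ppp1r17 were near 0 in the neurons that expressed it. Prkg1 and Prkg2, the cGMP-dependent kinases of which Ppp1r17 is a substrate, held means of 0.0138 and 0.135 RPKM in oculomotor GFP+ samples, beside 256.7 RPKM of Ppp1r17. Of 10 genes tested, 0 passed in limma between GFP+ fractions (2 under an unadjusted p of 0.05) and 0 between GFP− fractions (1 under that p), with medians of -0.04 and -0.20. Of all genes, 0.603% and 0.96% passed in these comparisons. The count between GFP+ fractions stayed at 0 in 17 of 19 alternatives and was at most 1. Npr2, the natriuretic peptide receptor that makes cGMP and the most abundant of the list, held 18.7 ± 9.28 RPKM (SD, n = 6) in the oculomotor GFP+ group and 5.36 ± 1.85 RPKM in the spinal one, a difference of 1.54 ± 0.37 (SE, adjusted p = 0.101 in limma). Npr2 rose from the GFP− to the GFP+ fraction of the oculomotor cultures by 3.17 ± 0.34 (adjusted p = 2.13e-06 in limma), the 1 gene of 10 that passed there, beside 6.15% of all genes. Pde9a, a phosphodiesterase that degrades cGMP, held 2.72 ± 0.881 and 4.31 ± 2.499 RPKM in the 2 GFP+ groups. In spinal cultures 0 of 10 passed, beside 1.23% of all genes, with 1 under an unadjusted p of 0.05. That gene was Npr2, at 5.36 RPKM in GFP+ and 1.55 RPKM in GFP− samples, a difference of 1.36 ± 0.34 (SE, adjusted p = 0.0505 in limma). The count became 1 in 5 of 20 alternatives: with median-ratio scaling, and without sample 4 or 5 of either spinal fraction. Over the list the medians were 0.04 in oculomotor and -0.04 in spinal cultures.

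Marker genes of the cells in which the 4 genes are otherwise known were measured in the same samples. All 13 motor neuron markers were above 0 in at least 1 oculomotor GFP+ sample, with Lhx3 (mean 0.0651 RPKM, 0.0871 in GFP− samples) and Slc5a7 (mean 0.345 RPKM) at 0 in some, and had summed levels of 415.4 to 852.3 RPKM against 10.6 to 45.3 RPKM in the GFP− samples, where Chat, the acetylcholine-synthesizing enzyme, was at 0. In spinal samples they summed to 72.7 to 481.0 (GFP+) and 10.4 to 104.8 RPKM (GFP−). Purkinje cell markers summed to 11.3 to 54.5 RPKM in oculomotor GFP+ samples, with 8 of 10 above 0, most of it from Pcp4 (mean 24.1 RPKM), while the defining markers Pcp2 and Skor2 were at 0 in all 6. Of 6 noradrenergic markers, which summed to 9.72 to 47.6 RPKM, most of the sum came from the vesicular monoamine transporter Slc18a2, with a mean of 21.3 RPKM in oculomotor GFP+ and 1.73 RPKM in GFP− samples. Th and Dbh, enzymes of noradrenaline synthesis, had means of 2.57 and 1.72 RPKM in oculomotor GFP+ samples, and the noradrenaline transporter Slc6a2 and Hand2 were at 0 in all 6. Serotonergic (4 genes) and interneuron markers (8 genes) summed to at most 4.58 and 8.05 RPKM there, and Fev was at 0. The summed level of the 10 neural progenitor markers overlapped between oculomotor GFP+ (187.2 to 751.2 RPKM) and GFP− samples (273.0 to 514.7 RPKM), but its members went in opposite directions. Sox2 and Hes1 had means of 12.9 and 15.7 RPKM in GFP+ against 79.2 and 100.3 RPKM in GFP− samples, while Nkx6-1 and Vim, at 222.3 and 150.3 RPKM in GFP+ against 26.9 and 83.4 RPKM in GFP− samples, carried the GFP+ sum.

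Among the sorted oculomotor samples, the 4 genes were not all high together. The 3 samples with the highest Ppp1r17 (samples 3, 5 and 6, with 334.2, 307.2 and 367.8 RPKM) had the 3 lowest values of Rgs4 (98.2, 78.6 and 86.5 RPKM). The highest Gm13889 value, 107.7 RPKM, was in sample 4, which had the lowest Ppp1r17 at 158.2 RPKM. Rprl3 was highest in sample 3 in both fractions, with 67.4 RPKM in GFP+ and 105.9 RPKM in GFP−, and lowest in sample 6 in both, with 5.49 and 20.002 RPKM. Gm13889 and Rprl3 were both highest in GFP+ samples 3 and 4, with 46.6 and 107.7 RPKM of Gm13889 and 67.4 and 24.4 RPKM of Rprl3. With 6 samples this is a description of these libraries.

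The genes whose pattern was most like that of each gene were found by the Pearson correlation of log2(RPKM + 1) over 24 samples, among 11950 genes with a mean of at least 1 RPKM. The samples form 4 groups and share cultures and depth, so the values describe the pattern and carry no test. For Ppp1r17 these were Sema6d (0.955), Tbx20 (0.939), Mgll (0.933), Thsd7b (0.928) and Rgs4 (0.925), of which Tbx20 is the cranial motor neuron factor named above. For Rgs4 they were Tbx20 (0.955), Thsd7b (0.947), Clvs1 (0.943), Fam163a (0.940) and Lmo1 (0.936). For Gm13889 they were P2rx3 (0.949), an ATP-gated channel subunit, Gm37928 (0.928), Fam163a (0.924), Thsd7b (0.923) and Gm37064 (0.921). The genes like Ppp1r17, Rgs4 and Gm13889 thus had means of 3.90 to 129.1 RPKM in oculomotor GFP+ samples and at most 6.75 RPKM in the other groups. Over the 12 oculomotor samples alone, the most alike were Isl1 (0.989), Elavl4 (0.994) and Gpc2 (0.986), in this order of genes. Tbx20 was not among the 20 most like Ppp1r17 or Rgs4 there, at 0.970 and 0.978. By rank (Spearman) correlation over 24 samples, the most alike were Insm1 (0.887), Clvs1 (0.935) and Usp12 (0.813). Sema6d for Ppp1r17 and P2rx3 for Gm13889 were among the 20 most alike by both.

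Rprl3 had another set of neighbors in pattern. Its 5 were Ddx3y (0.963), Ccdc7a (0.930), Eif2s3y (0.902), Eif5 (0.865) and Baiap2l1 (0.853). Ddx3y and Eif2s3y are genes of the Y chromosome. Ddx3y had means of 3.60 and 3.32 RPKM in oculomotor GFP+ and GFP− samples and of 0.0390 and 0.0314 RPKM in the spinal ones. Eif2s3y had means of 13.0 and 10.8 RPKM in oculomotor and of 0 and 0.0188 RPKM in spinal samples. The likeness lay in the step between cultures: over the 12 oculomotor samples alone, the correlations with Rprl3 were 0.630 for Ddx3y, 0.830 for Ccdc7a, -0.437 for Eif2s3y, 0.0116 for Eif5 and 0.369 for Baiap2l1. None of the 5 was among the 20 genes most like Rprl3 in those samples. For Rprl3, Ccdc7a, Eif5 and Baiap2l1, a difference between the cell lines cannot be told apart from one between the cultures' patterning. Each line was used for 1 kind of culture.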

How the data were processed

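RNA of 24 sorted samples (4 groups of 6, grouped by GEO's sample titles) was sequenced by the authors from SMART-seq2 libraries, mapped to mm10 with HISAT2 2.0.3 and summarised as RPKM with rpkmforgenes; the deposited table gives RPKM for 22889 entries, with no read counts, and its gene annotation is not given in the sources used here. Strand was not stated. Of these entries 37 are at 0 in all samples, and 4 share a name and are not named in the text.

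Mapped reads were recovered from RPKM steps in 5907 single-transcript genes (96.0% to 98.0% of values under 10 reads within 2% of a whole read). The limma package (3.58.1, under R 4.3.3) was used to compare groups on log2(RPKM + 1) (variance trend, Benjamini-Hochberg, threshold 0.05) for genes above 0 in at least 2 samples fitted: the 12 GFP+ samples for the GFP+ comparison, otherwise all 24 in 4 groups. The offset of 1 understates changes of low genes. Single values were compared with exact permutation tests (Python 3.11.15, numpy 2.4.6, pandas 2.3.3, scipy 1.17.1), sequences aligned with biopython 1.88, and figures drawn with matplotlib 3.10.9. The fit was tested on simulated data.

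The 4 genes and all gene lists were chosen with earlier results of these data known. Values of some genes are not reported here. Named list genes are those that passed (up to 4 per direction by size), or the 2 most abundant where none did; genes named from fits with a term per culture were named after their values were seen. The comparisons of fractions have no term for the culture. The fractions of 1 culture are pairs, so a fit with 1 term per culture, added after seeing the data, is given beside the counts it changes. Deviations of the 2 fractions from their group means correlated in all 12 cultures (0.379 to 0.728 over 11952 genes). Between oculomotor and spinal samples of the same number and fraction, the correlations were -0.175 to 0.438 in replicates 1 to 4 and 0.572 to 0.707 in replicates 5 and 6. The numbering thus did not pair these cultures throughout. No source says that replicates are separate differentiations of a line, so p-values measure the spread between these samples. Alternatives were the offset, the filter, median-ratio scaling, a replicate block, the samples fitted, replicates 1 to 4 alone and leaving out each sample.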

Additional observations from a re-analysis of the deposited data

Results flagged for a closer look

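In oculomotor GFP+ sample 3, Rprl3 was at 67.4 RPKM and stood apart from the other 5 samples of its group by Dixon's test at the 95% level, which marks about 1 in 20 groups by chance. The gap to the next sample was 0.695 of the group's range, and the GFP− fraction of the same culture was also the highest of its group, at 105.9 RPKM. Rpph1 was at 432.7 RPKM in that GFP+ sample, in a group that ran from 69.0 to 498.7 RPKM. The share of Rprl3 in the reads of the pair of genes was 12.4% there, inside the 4.26% to 14.2% of the group. 2 more values meet the same criterion only because the other 5 samples of their group are at 0, so that any single read would, and the criterion says nothing about them. In spinal GFP+ sample 4 it was at 0.883 RPKM and in spinal GFP− sample 6 at 0.486 RPKM, each the single sample above 0 of its group and each resting on 1 read. Ppp1r17, Rgs4 and Gm13889 had no such value in any group.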

How the results depend on the processing

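Between GFP− fractions, Rprl3 passed under all 19 alternatives (4.81 to 8.07 in log2(RPKM + 1); 4.81 to 5.28 leaving out 1 sample), and Ppp1r17 (-1.63 to -0.82), Rgs4 (-0.057 to 0.37) and Gm13889 (0.21 to 1.16) passed under none. The sign of Rgs4 turned to -0.029 without the spinal GFP− samples 2 and 4 and ranged from -0.057 to 0.14 leaving out 1 sample. Of 232 descriptive differences of the 4 genes, 225 moved by under 1 SD and 0 of those past it changed sign. Ppp1r17 between GFP+ fractions moved to 4.83 in replicates 1 to 4, and the other 6 grew with the offset of 0.1.

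The number of genes called moved more. Between GFP+ fractions it was 116, with 229 for an offset of 0.1, 73 with a replicate block, 342 with all 24 samples fitted, 30 in replicates 1 to 4, and 67 (without oculomotor sample 6; 69 without sample 2) to 181 (without spinal sample 3) leaving out 1 sample. Between GFP− fractions it was 213, with 563 under the block, 76 with 12 samples fitted, 39 in replicates 1 to 4, 421 without spinal samples 2 and 4, and 115 (without oculomotor sample 2; 130 and 141 without samples 4 and 6, 128 without spinal sample 6) to 444 (without spinal sample 4). In oculomotor cultures it was 1364, with 2361 under the block by number, 3644 with 1 term per culture, 2388 with 12 samples fitted, 476 in replicates 1 to 4 and 1017 to 1361 leaving out 1 sample. In spinal cultures it was 272, with 416 and 649 under these blocks, 4 with 12 samples fitted, 1 in replicates 1 to 4, 429 without GFP− samples 2 and 4, and 186 to 634 (without GFP+ sample 4). The causes were not tested. Median-ratio scaling moved the share of higher calls from 42.7% to 53.2% between GFP− fractions and from 62.0% to 51.2% in oculomotor cultures, and the offset of 0.1 moved it from 58.6% to 44.1% between GFP+ fractions. Without spinal samples 2 and 4 it was 34.1% of 173 calls between GFP+ fractions and 30.6% of 421 between GFP− fractions. Under the block by number, between GFP− fractions, 1 G protein gene (Gna12), 1 phosphatase inhibitor (Ppp1r1a) and 1 RNase P subunit (Rpp40) were called. Of 385 counts of list genes under alternatives, 354 stayed within 1.5 times. The alternatives without spinal samples 2 and 4 and the term per culture were chosen after seeing the data.

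Depth limits Rprl3, Gm13889 and the GFP− values of Rgs4 and Ppp1r17: 1 read decides whether Rprl3 is above 0 in a spinal group.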
